A study of Mus musculus with 4 samples.

Results

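The T cell peaks were the 1548 open chromatin regions, 0.816% of the 189598 mapped in mouse inguinal white adipose tissue (iWAT), that were open mainly in T cell nuclei. They were chosen by accessibility alone. Nuclei were pooled by the deposited cell type annotation into T cells (Tcell, Cd4 and Cd8), adipocytes (Adipocyte and Beige), adipocyte progenitors (APC1 and APC2), vascular endothelial cells (VEC), vascular smooth muscle cells (VSMC), myeloid cells (Macro and Dend) and B cells. Each nucleus has an entry of 1 in a peak where it had a read and 0 elsewhere, and the accessibility of a peak in a pool was its number of entries for every 1000000 entries of that pool (CPM). A T cell peak had at least 20 CPM in the T cell pool and at least 4 times the CPM of each other pool. Levels that entered this choice, including those of the Tcell, Cd4 and Cd8 annotations, are given as a description without a test.

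The study used single-nucleus ATAC-seq, in which a transposase cuts accessible DNA in nuclei and barcodes tie the fragments to 1 nucleus, on whole iWAT of male C57BL/6J mice of about 8 weeks. There were 7 groups of 3 mice: untreated mice at room temperature of 22 °C (day0RT), mice kept at 6.5 °C by the labels for 1, 3 or 7 days (day1C, day3C, day7C), and mice given the selective β3-adrenergic receptor agonist CL-316,243 (CL) at 1 mg/kg for 1, 3 or 7 days (day1CL, day3CL, day7CL). No transgene or deletion is named for any group. The inguinal depot normally encloses a lymph node, the sources used here do not say whether it was removed, and T cells of the fat and of the node cannot be told apart in these nuclei.

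T cells recognise antigen through a receptor of paired variable chains that signals through the CD3 proteins and the kinases Lck and Zap70. Helper T cells carry the coreceptor CD4 and cytotoxic T cells the coreceptor CD8. Their identity is set in the thymus by transcription factors that include Tcf7, Lef1, Bcl11b, Gata3 and the Runx and Ets families, and it is kept in mature cells by regulatory DNA that often lies far from gene starts. In adipose tissue, T cells are known as resident immune cells that act on inflammation and on adipocyte metabolism.

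Short motifs of Runx, Ets and Tcf7-Lef1 proteins stood in the middle of many T cell peaks, and 9 windows show what these regions look like. Each is the middle 300 bases of a peak, read 5′ to 3′ on the plus strand from the RefSeq GRCm38 (mm10) genome, the build of the files. Capitals mark matches on either strand of RUNX (TGTGGTT), ETS (CAGGAAGT), a composite of both (GGATGTGG) and TCF7-LEF1 (ATCAAAG). The first window, chr6:41554448-41554747, belongs to the most accessible T cell peak, inside the T cell receptor beta locus, and holds the composite joined to a RUNX match near its start and the same pair of motifs on the other strand from base 98 to base 116.

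Trb: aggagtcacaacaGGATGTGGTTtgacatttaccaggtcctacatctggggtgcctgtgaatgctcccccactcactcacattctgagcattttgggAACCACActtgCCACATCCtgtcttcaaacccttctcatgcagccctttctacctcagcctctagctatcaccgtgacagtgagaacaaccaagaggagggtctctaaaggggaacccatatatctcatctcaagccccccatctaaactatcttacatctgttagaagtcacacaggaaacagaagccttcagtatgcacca

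The next windows are from the strongest T cell peaks with the composite that were not yet shown, an intronic peak of Kbtbd11 (chr8:15018511-15018810) and an intronic peak of Nsmce1 (chr7:125488790-125489089), which had 91.7 and 87.1 CPM in T cell nuclei.

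Kbtbd11: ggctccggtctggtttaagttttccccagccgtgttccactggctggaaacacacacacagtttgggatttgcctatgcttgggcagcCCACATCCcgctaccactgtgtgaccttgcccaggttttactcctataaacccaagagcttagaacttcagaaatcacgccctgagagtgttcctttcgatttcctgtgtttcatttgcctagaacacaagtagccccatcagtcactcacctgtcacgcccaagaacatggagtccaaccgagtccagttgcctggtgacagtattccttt

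Nsmce1: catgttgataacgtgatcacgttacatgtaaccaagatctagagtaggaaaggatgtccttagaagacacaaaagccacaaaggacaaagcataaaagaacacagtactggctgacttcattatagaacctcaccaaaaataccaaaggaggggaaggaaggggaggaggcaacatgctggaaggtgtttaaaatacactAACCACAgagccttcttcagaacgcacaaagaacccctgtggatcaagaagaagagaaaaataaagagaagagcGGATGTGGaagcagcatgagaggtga

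TCF7-LEF1 is shown in the strongest T cell peaks that hold it, 39301 bases from the start of Il6st (chr13:112424620-112424919) and 229959 bases from the start of Ets1 (chr9:32926194-32926493).

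Il6st: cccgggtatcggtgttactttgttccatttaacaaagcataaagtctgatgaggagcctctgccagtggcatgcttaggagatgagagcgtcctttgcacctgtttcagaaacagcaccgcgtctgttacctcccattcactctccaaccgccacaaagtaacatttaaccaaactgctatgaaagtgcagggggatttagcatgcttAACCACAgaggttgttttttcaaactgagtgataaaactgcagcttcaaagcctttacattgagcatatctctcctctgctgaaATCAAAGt

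Ets1 side: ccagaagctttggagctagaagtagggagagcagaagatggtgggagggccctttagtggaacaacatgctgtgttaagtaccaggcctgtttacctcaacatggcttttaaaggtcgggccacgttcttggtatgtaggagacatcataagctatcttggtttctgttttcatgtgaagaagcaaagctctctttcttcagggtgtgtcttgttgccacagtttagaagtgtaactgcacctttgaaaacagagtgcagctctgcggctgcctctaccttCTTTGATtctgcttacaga

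The strongest T cell peak of Lef1, in an intron (chr3:131208554-131208853), has RUNX and ETS 4 bases apart, and that of Cd3e, at the gene start (chr9:45009428-45009727), has a single ETS match.

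Lef1: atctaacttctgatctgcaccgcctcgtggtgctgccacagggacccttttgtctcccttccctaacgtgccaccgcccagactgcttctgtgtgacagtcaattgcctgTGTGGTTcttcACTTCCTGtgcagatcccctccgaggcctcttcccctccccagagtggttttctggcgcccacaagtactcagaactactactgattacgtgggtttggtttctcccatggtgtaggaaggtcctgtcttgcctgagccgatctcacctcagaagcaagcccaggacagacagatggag

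Cd3e: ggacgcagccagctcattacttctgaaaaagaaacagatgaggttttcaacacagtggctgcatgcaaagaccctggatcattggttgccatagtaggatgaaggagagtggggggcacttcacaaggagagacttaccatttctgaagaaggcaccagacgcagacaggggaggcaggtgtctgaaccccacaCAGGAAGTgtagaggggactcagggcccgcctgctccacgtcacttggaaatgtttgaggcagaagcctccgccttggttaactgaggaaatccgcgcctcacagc

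The last windows show peaks that led in 1 annotation. The first was chosen because it holds RUNX and the second without regard to motifs, so the pair does not compare motifs. A peak led by Cd8 nuclei, 25102 bases from the start of Ap1ar (chr3:127862476-127862775), holds RUNX at 2 places and ETS at 1. The peak with the largest lead of Cd4 nuclei among those with at least 40 CPM there, 14010 bases from the start of Gm47955 (chr1:82974147-82974446), holds none of these letters.

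Ap1ar side, led by Cd8: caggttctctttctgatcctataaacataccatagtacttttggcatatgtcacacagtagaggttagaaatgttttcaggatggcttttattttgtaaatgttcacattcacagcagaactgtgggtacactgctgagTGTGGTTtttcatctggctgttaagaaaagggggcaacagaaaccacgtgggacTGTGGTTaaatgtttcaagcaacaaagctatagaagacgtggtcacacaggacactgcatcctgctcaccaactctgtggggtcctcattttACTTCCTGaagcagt

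Gm47955 side, led by Cd4: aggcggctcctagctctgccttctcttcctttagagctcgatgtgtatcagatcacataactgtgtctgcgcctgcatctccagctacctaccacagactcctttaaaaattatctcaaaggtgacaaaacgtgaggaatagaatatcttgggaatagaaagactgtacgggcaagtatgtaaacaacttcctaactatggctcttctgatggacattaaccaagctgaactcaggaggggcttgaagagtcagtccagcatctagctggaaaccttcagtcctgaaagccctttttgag

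The T cell pool held 9814 of 32552 nuclei (1610 Tcell, 3741 Cd4 and 4463 Cd8) and 13190880 entries, so even the shallowest T cell peak rested on 264 entries and the median on 412. Across the 1548 peaks the T cell level had a median of 31.2 CPM and ran from 20.0 to 138 CPM. A T cell peak was open in a median of 4.20% of T cell nuclei, and the range was 2.69% to 18.5%. Over the highest other pool the median fold was 6.75 and the range 4.00 to 27.7, with 295 peaks at 10 or more. The highest other pool was myeloid for 598 peaks, VEC for 353, B cell for 240, VSMC for 239, APC for 86 and adipocyte for 32. The VEC and VSMC pools were small, at 351 and 283 nuclei, and 296 and 363 T cell peaks had no entry in them.

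At the threshold of 20 CPM, 2 peaks just inside, chr15:97390780-97391150 and chr13:73760091-73760523, both had 20.01 CPM, and 2 just outside, chr9:108146315-108146850 and chr6:38120604-38121111, had 19.94 CPM. At the threshold of 4 times, peaks just inside, chr7:90302062-90303421 and chr4:8838589-8839030, stood at 4.004 and 4.008, and peaks just outside, chr5:112301742-112302178 and chr10:62858928-62859463, stood at 3.992 and 3.996. Accessibility in T cells alone did not make a T cell peak, since of the 14401 peaks with at least 20 CPM in T cell nuclei only 10.7% passed the fold.

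The median level of the T cell peaks was 34.5 CPM in Cd8 nuclei, 32.8 CPM in Cd4 nuclei and 24.2 CPM in Tcell nuclei, and outside T cells it was 3.65 CPM in the myeloid pool, 3.26 in VEC, 1.98 in APC, 1.58 in B cells, 1.30 in VSMC and 1.07 in adipocytes. They took up 6.14% of all entries of Cd8 nuclei, 5.73% of Cd4 and 4.18% of Tcell nuclei. The same share was 0.437% in B cells, 0.678% in macrophages, 0.556% in dendritic cells, 0.236% in adipocytes and 0.192% in beige adipocytes. A single nucleus had a median of 66 open T cell peaks when annotated Cd8, 53 when Cd4 and 43 when Tcell, against 4 in B cells and 5 in macrophages and adipocytes. The heat map by annotation shows these levels peak by peak. The choice of peaks required a contrast between the T cell pool and each other pool at every one.

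**Figure D1:**
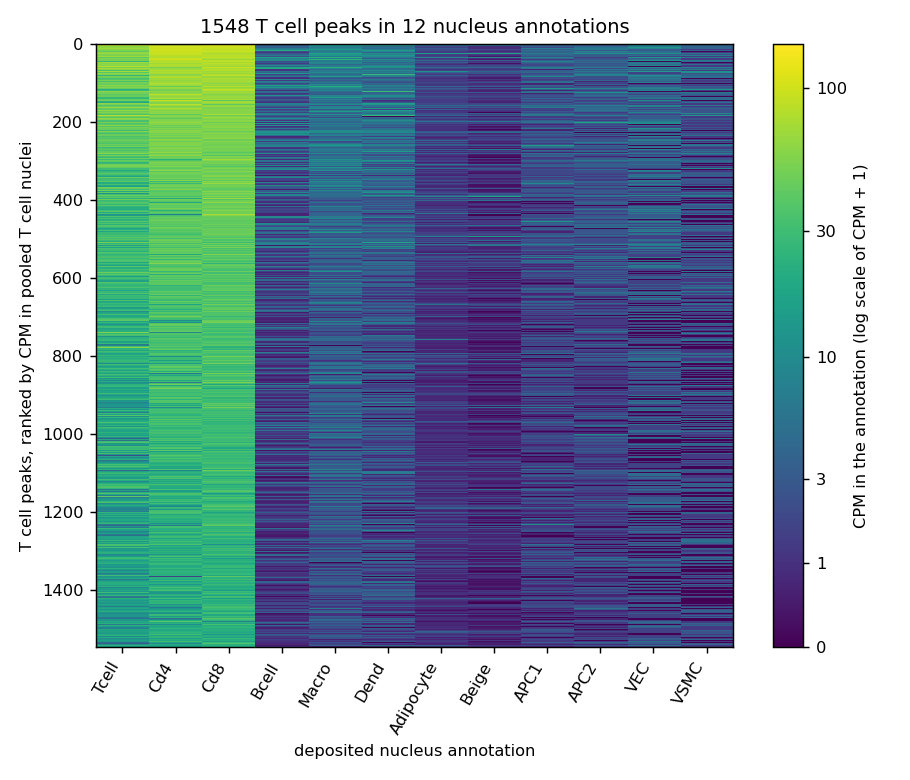
Heat map of the 1548 T cell peaks (rows, ranked by CPM in pooled T cell nuclei) in the 12 deposited annotations (columns), coloured by CPM on a log scale of CPM + 1. The Tcell, Cd4 and Cd8 columns stand out, with medians of 24.2, 32.8 and 34.5 CPM, and the other 9 columns are dark.

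Marker lists, each summed over the peaks of its genes, describe the annotations. They are no independent check, since the cell types were clustered on these peaks. The T cell receptor and CD3 list summed to 860 CPM in Tcell, 985 in Cd4 and 954 in Cd8 nuclei, and to between 28.5 (Beige) and 270 CPM (Dend) in the other annotations. The B cell list summed to 317 to 376 CPM in the 3 T cell annotations and 2775 in B cells, and the myeloid list to 161 to 187 CPM against 828 in macrophages. The CD8 and cytotoxic list had 1059 CPM in Cd8 and 511 in Cd4 nuclei. Some lists separated the annotations less. The CD4 helper and regulatory list had 1934 CPM in Tcell, 1469 in Cd4, 1144 in Cd8 and 1141 in VSMC nuclei. The gamma delta and innate-like list was highest in VSMC, at 2358 CPM against 516 to 811 in the T cell annotations. The endothelial list had 374 to 445 CPM in these and 744 in VEC. A list of lymph node stroma genes (Cxcl13, Ccl19, Ccl21a, Madcam1 and Pdpn) summed to 4.02 to 5.07 CPM in the T cell annotations and reached 125 and 154 CPM in APC1 and APC2. No gene of the B cell, myeloid, dendritic, stromal or lymph node stroma lists had a T cell peak.

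The highest level, 137.7 CPM, was at chr6:41554057-41555138 in the T cell receptor beta locus, 5705 bases past the end of the constant gene Trbc2 and 2553 bases before the variable gene Trbv31. This is where the enhancer of the locus is known to lie. The peak was open in 18.5% of T cell nuclei and stood 6.65 times above B cells, the next pool. In the day0RT mice it had 137, 150 and 126 CPM. The cold groups had 167, 150 and 159 (day1C), 134, 148 and 149 (day3C), and 147, 151 and 132 CPM (day7C), and the CL groups 136, 125 and 135 (day1CL), 119, 47.7 and 114 (day3CL), and 124, 132 and 127 CPM (day7CL). The day1C mice all lay above day0RT, narrowly in 1 case, the day3CL mice all lay below it, and the other groups overlapped with it. The value of 47.7 CPM was a single entry of a mouse with 21 T cell nuclei.

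The other strong peaks were mostly far from gene starts. Downstream of Ets1, a founding member of its factor family, chr9:32928236-32929061 had 124.5 CPM at 232264 bases from the gene start, with 93.9, 126 and 165 CPM as the lowest, median and highest mouse. Upstream of Tcf7, the T cell factor that binds the TCF7-LEF1 motif, chr11:52313977-52314750 had 106.7 CPM at 31349 bases, 13.6 times the next pool, and ranged from 45.1 to 129 CPM over the mice with a median of 101. An intronic peak of 4930453N24Rik (chr16:64757602-64759489) had 112.8 CPM. A peak 39301 bases from the start of Il6st, the shared receptor subunit of the interleukin 6 family, at chr13:112424213-112425325, had 105.7 CPM. The remaining peaks of the top 10 had between 92.6 and 98.5 CPM and lay 34976 bases from the start of Tmsb10 (chr6:72993075-72994374), within Itpk1 (chr12:102627518-102628860) and Fam189b (chr3:89187679-89189090), 61511 bases from Saraf (chr8:34215245-34216930) and 170618 bases from 4933412E24Rik (chr15:60186450-60188012). Per kilobase of peak, the highest level was 157.5 CPM at chr6:41553334-41553711, next to the strongest peak in the same receptor locus.

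The parts of the antigen receptor were marked by few but clear peaks. Of the 11 genes of the T cell receptor and CD3 list, 6 had a T cell peak (13 of 55 peaks assigned to these genes), where a gene owned the peaks in its body and 2000 bases upstream or, failing that, those whose nearest start within 100000 bases was its own. Cd3e, which encodes the epsilon chain, had its strongest peak at its start (chr9:45009131-45010023) at 60.6 CPM, 18.1 times the next pool. In the 3 day0RT mice this peak had 65.7, 63.1 and 59.3 CPM, and over all 21 mice the median was 59.3. Its neighbours Cd3d and Cd3g, which share a start region, had 53.4 CPM at chr9:44980247-44980668. Cd247, the zeta chain, had 5 T cell peaks with 36.0 CPM at its start (chr1:165788483-165788994), and Trac, the alpha constant gene, had 21.5 CPM at chr14:54218776-54219055. Trbc1, Trdc and the gamma constant genes Tcrg-C1, Tcrg-C2 and Tcrg-C4 had none. The strongest peak of Tcrg-C1 (chr13:19219408-19220016) had 5.84 CPM in Tcell, 1.56 in Cd4 and 7.29 in Cd8 nuclei, and that of Tcrg-C4 (chr13:19356133-19356555) 15.8, 1.34 and 10.9 CPM.

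Of the receptor signalling genes, 19 of 24 had T cell peaks, which made up 47 of the 491 peaks assigned to the list. Prkcq, the protein kinase C theta of the immune synapse, had 9 T cell peaks of 33.1 to 73.5 CPM. Themis, needed for thymocyte selection, had 72.9 CPM at its start (chr10:28668061-28668769). Zap70 had 57.5 CPM at its start (chr1:36761388-36762181) and Rasgrp1, an activator of Ras, 75.7 CPM at a peak 74534 bases away (chr2:117417151-117417919). Thy1, a T cell surface protein, had 5 peaks with 54.2 CPM at the strongest. Lcp2, Txk, Sit1, Tespa1 and Ptpn22 had none, in each case because another pool was too close. At Ptpn22, for example, the strongest peak had 110.7 CPM in T cells and was only 1.36 times the B cell level.

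Among T cell transcription factors, 14 of 19 genes had T cell peaks, 54 of the 793 assigned to the list. Lef1 had 8, with 67.8 CPM at the strongest (chr3:131208293-131209114), and Tcf7 had 7. Bcl11b, which commits thymocytes to the T lineage, had 7 and reached 61.2 CPM at its start (chr12:108003760-108004440), where the B cell level was 0.570 CPM. Satb1, a chromatin organiser, had 7 and reached 51.6 CPM at chr17:51879018-51879596. Ikzf1 reached 76.2 CPM in an intron (chr11:11725745-11726605), Ets1 69.1, Bach2 59.3, Tox 56.7 and Gata3 34.1 CPM. Klf2, which controls the exit of naive T cells from the thymus and nodes, had its strongest peak at 104.8 CPM with a ratio of 0.922 to B cells, and it had no T cell peak, nor did Zbtb7b, Id2, Id3 or Foxo1.

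Helper and homing genes mostly lacked T cell peaks. Of the CD4 helper and regulatory list, 5 of 18 genes had 1 or more (7 peaks): Il2ra, Ctla4, Icos, Cd40lg and Tnfrsf18. The strongest peak assigned to Foxp3, the factor of regulatory T cells, had 66.3 CPM and was 1.26 times B cells, but it lay 97 bases from the start of the neighbouring gene Ppp1r3f (chrX:7573767-7574994). The strongest peak of Cd4 (chr6:124885129-124885725) had 21.1 CPM and was 3.24 times VEC, short of the fold. Ccr7, the homing receptor for nodes, had 78.5 CPM and 1.08 times the B cell level. Of the naive state and homing list 4 of 14 genes had T cell peaks, led by the interleukin 7 receptor gene Il7r with 5 and 80.6 CPM at the strongest (chr15:9574536-9575395). Of the CD8 and cytotoxic list 12 of 18 genes did (22 peaks), of the inhibitory receptor list 4 of 7 (7 peaks) and of the gamma delta and innate-like list 2 of 8 (2 peaks).

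A few members carried the name of a gene of another cell type. Adipoq, the adiponectin gene of adipocytes, was given 5 T cell peaks because the run chr16:23165308-23182004 begins 7280 bases past its end. The other neighbour, St6gal1, starts 42736 bases away. The strongest of the 5 (chr16:23181118-23182004) had 103 CPM in Cd4, 71.0 in Cd8, 11.7 in B cell and 1.72 CPM in Adipocyte nuclei. Pecam1, an endothelial adhesion gene, had 1 intronic T cell peak at 26.4 CPM, and Eomes, listed with natural killer cells and also a factor of cytotoxic T cells, had 3. Genes outside the lists were also among them. T cell peaks lay within 2000 bases of starts of the immunoglobulin heavy chain genes Ighd3-2 (44.2 CPM, 3.36 in B cells), Ighv1-12 (24.0), Ighv14-2 (21.9) and Ighv1-74 (20.5). The Fc receptor gene Fcgr3 had such a peak at 27.1 CPM.

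By gene, 976 genes had at least 1 T cell peak, 101 had 3 or more, and 166 T cell peaks had no gene within reach. Inpp4b, a lipid phosphatase gene, had the most at 10, before Prkcq at 9, Fam78a and Lef1 at 8, Tcf7, Bcl11b, Satb1, Foxp1 and the overlapping Gm20696 at 7, and Arl4c at 6. Foxp1, a factor of T cell quiescence, and Gm20696 shared all 7. Peaks that overlap both genes cannot be given to either one.

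T cell peaks were rarely at gene starts. Only 124 (8.01%) lay within 2000 bases of a start in the GENCODE vM21 basic annotation, against 12.3% of all 189598 peaks and 57.5% of the peaks with at least 20 CPM in T cells. Introns held 745 (48.1%), intergenic DNA 624 (40.3%), coding exons 29 (1.87%) and non-coding exons 26 (1.68%). The median distance to a start was 26442 bases, close to the 25501 bases of all peaks and far from the 395 bases of the accessible ones, and 227 T cell peaks (14.7%) were more than 100000 bases away. B cell peaks chosen by the same rule had 9.71% near a start and adipocyte peaks 6.60%. The T cell peaks were longer than peaks in general, with a median of 684 against 392 bases, and had the same median GC content of 47.7%. Length did not set them apart, since B cell, myeloid and adipocyte peaks had medians of 725, 499 and 927 bases. Peaks with at least 20 CPM in T cells had a median of 1015 bases and a GC content of 57.3%.

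Joining T cell peaks no more than 15000 bases apart gave 1205 runs, of which 978 were single peaks. The other 227 held 570 peaks, and 24 runs of 4 or more held 125. The longest by count had 9 peaks each. At Prkcq all 9 of its T cell peaks formed 1 run, chr2:11159614-11218577, with a summed level of 454 CPM, and the other run, chr2:32047250-32078081, lay over Fam78a and Nup214 with 400 CPM. Next came 7 peaks at chr12:107118338-107160976, 842626 bases from the start of Bcl11b with no gene nearer than 327656 bases, which summed to 385 CPM, and 7 peaks in the T cell receptor beta locus at chr6:41532453-41558636. A run of 6 at chr9:32910179-32941866 began 152359 bases past the end of Ets1 and summed to 377 CPM. Another run of 6, chr15:60097153-60137166, between 4933412E24Rik and Fam84b, summed to 348 CPM. The run of 5 with the highest sum, 270 CPM, was chr3:103384892-103406096 between Trim33 and Syt6. Other runs of 5 stood over Thy1, Lef1 and Inpp4b, within Spef2 beside Il7r, and at chr6:71341169-71369863 between Cd8b1 and Cd8a. The rest were the run past Adipoq named above, chr17:51879018-51906996 on the Satb1 side and chr3:152917606-152956449 over Pigk and St6galnac5.

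Sequence in the 300 middle bases was not used to choose the peaks. Runx proteins bind TGTGGTT, and 26.6% of T cell peaks held it on either strand, against 13.0% of B cell, 12.8% of myeloid and 5.65% of adipocyte peaks chosen by the same rule and 8.99% of all peaks. ETS was found in 15.5% against 5.18% of all peaks, the composite in 10.1% against 2.31% and TCF7-LEF1 in 11.3% against 4.50%. The composite and RUNX overlap where GGATGTGG is followed by TT. At least 1 of these 4 stood in 793 T cell peaks (51.2%), in 25.6% of B cell and 24.9% of myeloid peaks, and in 19.1% of all peaks. Of the peaks with at least 20 CPM in T cells, 22.4% held 1 or more. A match describes letters in a window and does not show that a factor was bound.

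The other motifs were less distinct or more frequent elsewhere. The E-box CAGGTG stood in 27.1% of T cell peaks, 35.0% of B cell peaks and 16.6% of all peaks, and the E-box CAGCTG in 17.4% against 20.8% of all peaks. The motif AGATAAG of Gata3 was found in 5.30% against 3.71%, T-box (AGGTGTGA) in 2.65% against 1.08% and KLF (GGGTGTGG) in 4.72% against 3.11%. Motifs of other lineages were at or below the level of all peaks, or highest elsewhere: OCT (ATGCAAAT) in 1.03% of T cell and 13.0% of B cell peaks, EBF (CCCNNGGGA) in 2.71% and 11.3%, and PU.1 (GAGGAAGT) in 6.52% of T cell and 12.9% of myeloid peaks. C/EBP (TTGCNNCAA) stood in 2.26% of T cell and 5.26% of adipocyte peaks. Of the motifs of factors induced on T cell activation, NFAT (TGGAAAA) was in 5.36% of T cell peaks, 8.31% of all peaks and 4.15% of the peaks with at least 20 CPM in T cells. AP-1 (TGANTCA) was in 10.5%, 12.3% and 6.19% of these, so the order depended on the background.

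**Figure D2:**
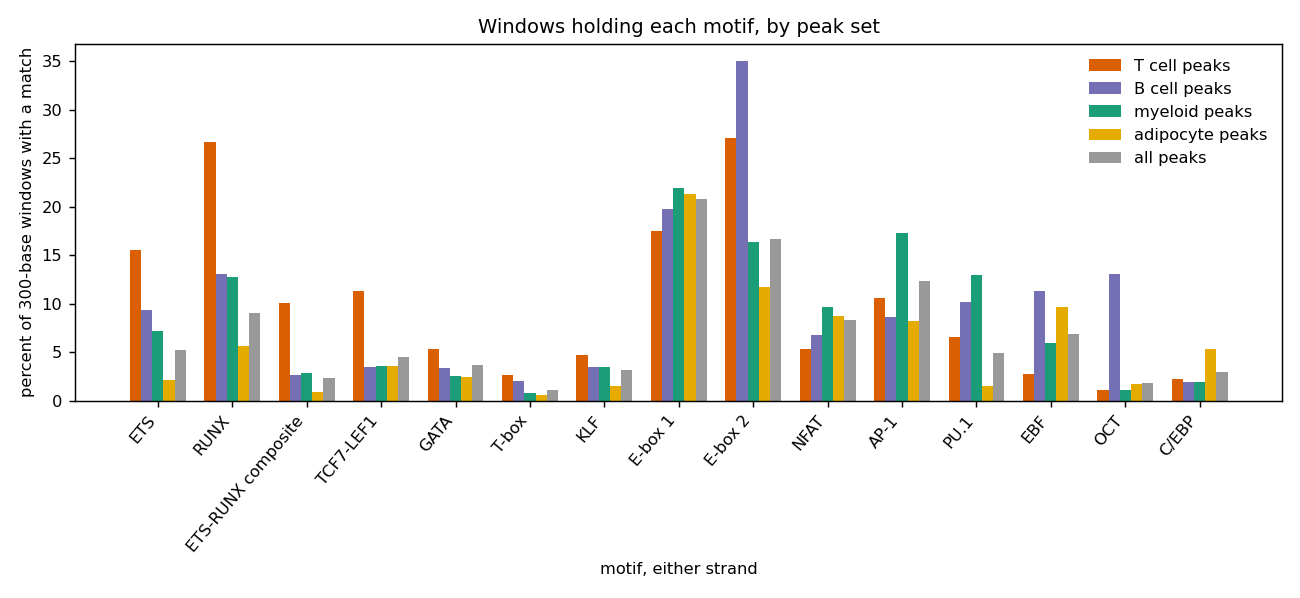
Bars give the percent of 300-base windows around peak middles with a match to each of 15 motifs on either strand, for T cell, B cell, myeloid, adipocyte and all peaks. E-box 1 and E-box 2 are the motifs ending in CTG and GTG. T cell peaks have the tallest bars for RUNX (26.6%), ETS (15.5%), the composite (10.1%) and TCF7-LEF1 (11.3%), and B cell peaks for OCT (13.0%) and EBF (11.3%).

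These motifs were concentrated at the peak middles. In the 50-base bin centred 25 bases before the middle, RUNX stood in 6.33% of T cell peaks against 1.96% of all peaks, and 475 bases before the middle in 1.10% against 1.18%. ETS reached 4.39% against 1.23% in the same central bin. For the composite, the bin 25 bases past the middle held 2.33% against 0.499%, and for TCF7-LEF1 2.78% against 0.768%.

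**Figure D3:**
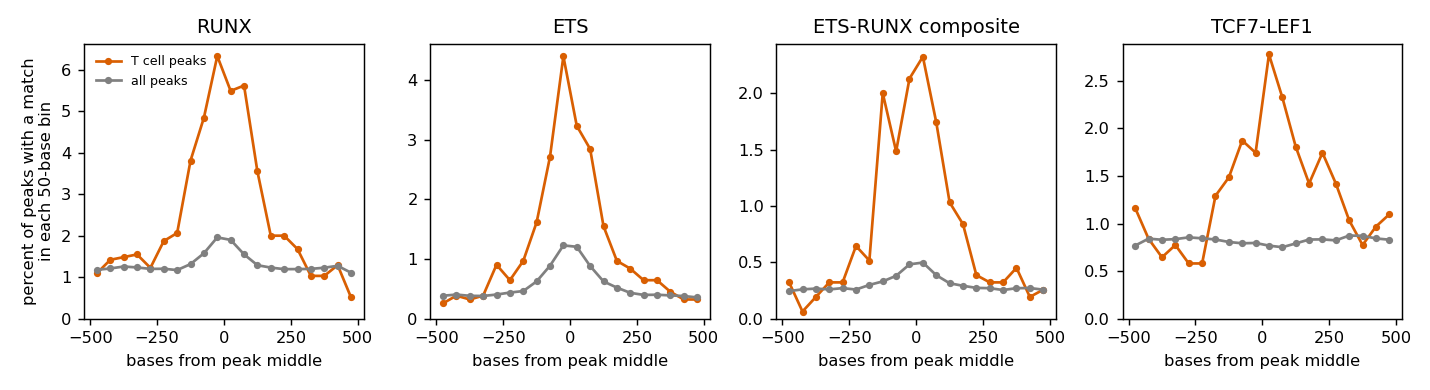
Percent of peaks with a motif match in each 50-base bin (vertical axis) by distance in bases from the peak middle (horizontal axis), for T cell peaks and all peaks, in a panel each for RUNX, ETS, the composite and TCF7-LEF1. The T cell line rises at the middle, to 6.33% for RUNX, and falls towards the line of all peaks at the edges. RUNX is at 1.10% against 1.18% of all peaks 475 bases before the middle and at 0.517% against 1.11% 475 bases past it. TCF7-LEF1 stays above all peaks there, at 1.16% against 0.770% and 1.10% against 0.831%.

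Most T cell peaks were shared by the 3 annotations. Cd8 nuclei had the highest level at 790 peaks, Cd4 at 647 and Tcell at 111, and Tcell had the lowest at 1132. A level at least 2 times that of both others was found at 81 peaks for Cd8, 9 for Cd4 and 3 for Tcell. With 1.5 times these were 192, 69 and 9. The plot of Cd4 against Cd8 levels shows this tail on the Cd8 side. The 20 CPM cut was on the pool, where Cd8 nuclei gave 6310160 of 13190880 entries, Cd4 4482108 and Tcell 2398612. A peak open mainly in Cd4 or Tcell nuclei therefore needed a higher level there to pass than one open mainly in Cd8 nuclei. The rule thus favoured Cd8 leads in these counts.

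**Figure D4:**
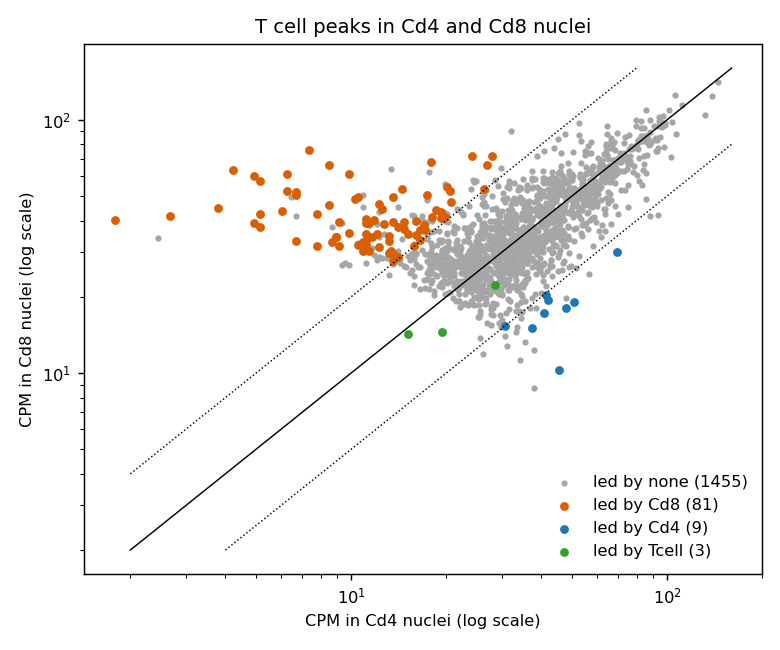
Each point is 1 of the 1548 T cell peaks, with its CPM in Cd4 nuclei on the horizontal and in Cd8 nuclei on the vertical axis, both on log scales. The solid line marks equal levels and the dotted lines a ratio of 2, and colours mark the 81 peaks led by Cd8, the 9 led by Cd4 and the 3 led by Tcell at 2 times or more.

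The Cd8 coreceptor locus was the clearest region of this tail. The 5 peaks between Cd8b1 and Cd8a summed to 295 CPM in Cd8, 55.4 in Tcell and 26.8 in Cd4 nuclei. Among them chr6:71353489-71354111, 19627 bases from the start of Cd8a, had 63.4 CPM in Cd8, 8.34 in Tcell and 4.24 in Cd4 nuclei. Over the 20 mice with at least 10 nuclei of both kinds, it ranged from 25.2 to 88.0 CPM in Cd8 and from 0 to 16.9 CPM in Cd4 nuclei, with Cd8 above Cd4 in 20 of 20. These mice hold the nuclei behind the annotation and the choice of peaks, so such tallies describe how even the lean was and test nothing. On the Cd8b1 side, chr6:71342733-71343346 had 76.1 CPM in Cd8 and 7.36 in Cd4 nuclei, again with Cd8 above in 20 of 20 mice.

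Among peaks with at least 40 CPM in Cd8 nuclei, the largest ratio to the next annotation, 11.9, was at an intronic peak of Tshz2 (chr2:170050420-170051280) with 45.0, 3.79 and 3.75 CPM in Cd8, Cd4 and Tcell nuclei. Fam241a (chr3:127868121-127868904) had 60.2 CPM in Cd8 and 4.91 in Cd4, and Smyd1, the gene beside Cd8b1, 43.7 and 6.02 CPM (chr6:71307480-71308122). Of the 12 genes of the CD8 and cytotoxic list with T cell peaks, 10 had a higher level in Cd8 than in Cd4 nuclei at their strongest one. Gzmb and Fasl were higher in Cd4 nuclei, at 84.6 against 72.1 and 49.1 against 26.1 CPM. Nkg7, a granule protein gene, had 57.5 CPM at its start in Cd8 and 5.13 in Cd4 nuclei (chr7:43436360-43437263). Runx3, the factor of the CD8 lineage, had 53.2 and 14.5 CPM (chr4:135098271-135099008), and Itgae, the integrin of resident T cells and a gene of the homing list, 66.6 and 8.48 CPM (chr11:73094219-73095024). Cd8 was above Cd4 in 20 of 20 mice at Nkg7 and Runx3.

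Among the peaks that passed the rule, those led by Cd4 nuclei were fewer and their ratios smaller, a split that the pool cut favoured. With at least 40 CPM in Cd4 nuclei, the largest was 2.66 at chr1:82973895-82974698 on the Gm47955 side, with 50.6 CPM in Cd4, 19.0 in Cd8 and 15.4 in Tcell nuclei. An intronic peak of Cd200r3 (chr16:44964767-44965806) had 69.6 CPM in Cd4 and 30.0 in Cd8 nuclei. By mouse its Cd4 level lay between 55.4 and 86.5 CPM and its Cd8 level between 0 and 50.0 CPM. Calcrl (40.8 CPM in Cd4, chr2:84347330-84347973), Trub1 (45.5, chr19:57429857-57430504) and Tasp1 (41.9, chr2:139934554-139935475) completed the 5 with the largest ratios. Cd4 was above Cd8 in 16, 19 and 17 of 20 mice at these.

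Nuclei annotated Tcell were led by few peaks of their own and shared levels with either side. Near Rarg (chr15:102262980-102263488) they had 44.6 CPM, against 15.2 in Cd4 and 14.3 in Cd8 nuclei, and near Nrn1 (chr13:36807899-36808641) 58.4, 28.6 and 22.3 CPM. At the start of Il2rb, the interleukin 2 receptor beta chain, they had 69.6 CPM, close to 63.9 in Cd8 and above 13.4 in Cd4 nuclei (chr15:78494773-78495515). At 3 genes known from regulatory T cells Cd4 nuclei were above Cd8 nuclei, with 83.4, 55.6 and 46.6 CPM in Tcell, Cd4 and Cd8 nuclei at Tnfrsf18 (chr4:156021402-156022654), 50.9, 45.1 and 28.8 at Il2ra (chr2:11657501-11658087) and 30.4, 26.1 and 11.9 at Ctla4 (chr1:60882667-60883382). Ikzf2, another such gene, had no T cell peak, and its strongest peak had 62.5, 26.3 and 39.6 CPM in the same order. At the Satb1 peak named above Tcell nuclei had 21.7 CPM, against 59.1 in Cd4 and 57.5 in Cd8 nuclei, and were above neither in any of 20 mice.

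Motifs also differed along this axis. RUNX stood in 72 of the 192 peaks that leaned to Cd8 by 1.5 times (37.5%), in 10 of the 69 that leaned to Cd4 (14.5%) and in 25.8% of those without a lean. T-box, the motif of Tbx21 and Eomes, was in 10 of the 192 (5.21%) and in none of the 69. With 69 peaks on the Cd4 side these shares rest on few matches.

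Between mice, T cell nuclei numbered 21 to 697 with a median of 513, and 3 mice stood apart before any comparison. These were day1CL replicate 3 with 66, day3CL replicate 2 with 21 and day3C replicate 1 with 87 T cell nuclei. T cells made up 5.94%, 1.69% and 5.60% of their nuclei and 24.3% to 44.3% in the other 18 mice, B cells 5.94%, 12.4% and 31.2%, and adipocytes 58.9%, 75.1% and 45.7%. In day3CL replicate 2, 1 entry was worth 47.7 CPM and 687 of the 1548 T cell peaks had any. Barcode sequences of 2550 T cell nuclei also occurred in another mouse. Results by group are therefore given with and without the 3 mice where they changed.

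The share of entries of T cell nuclei that fell in T cell peaks was 5.64%, 5.63% and 5.72% in the day0RT mice and 5.25%, 5.11% and 4.62% in the day1CL mice, a mean of 5.66% ± 0.0521 against 4.99% ± 0.330 (SD, n = 3). The groups did not overlap, also without day1CL replicate 3, and no test was run on this share. The same order held within each annotation, at 4.13% to 4.41% against 3.81% to 3.88% in Tcell, 5.76% to 6.08% against 4.86% to 5.33% in Cd4 and 6.12% to 6.24% against 5.07% to 5.53% in Cd8 nuclei. The other groups were at 5.38% to 5.58% (day1C), 5.50% to 6.22% (day3C), 5.80% to 5.92% (day7C), 4.63% to 5.85% (day3CL) and 5.40% to 5.53% (day7CL). Over all T cell nuclei, day7C lay above and day1C and day7CL below day0RT without overlap. Within annotations this did not hold throughout. There day7C overlapped day0RT in each annotation, day1C in Tcell and Cd4 and day7CL in Tcell and Cd8 nuclei. Nuclei annotated Tcell, with the lowest share, were 17.5% to 21.9% of T cell nuclei in day0RT and 12.2% to 14.6% in day7C. The part of this mix in the shares was not tested.

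Other cells of the day1CL mice also had lower shares. B cell nuclei had 3.82% to 4.08% of their entries in B cell peaks in day1CL, against 4.11% to 4.38% in day0RT, and adipocyte nuclei 2.70% to 2.77% in adipocyte peaks against 3.02% to 3.22%. The adipocyte share was also below day0RT in day3C (2.78% to 3.00%), day7C (2.85% to 2.92%) and day3CL (2.79% to 3.00%). B cell nuclei had more entries in T cell peaks, 0.518% to 0.529% against 0.399% to 0.465%. T cell nuclei of day1CL had 0.130% to 0.143% of their entries in adipocyte peaks, against 0.0650% to 0.0896% in day0RT. In myeloid peaks they had 0.0957% to 0.103% against 0.0775% to 0.0826%. Both shares also lay above day0RT in day1C, day3C and day7CL. Entries per T cell nucleus were fewer in day1CL, 992 to 1080 against 1149 to 1859, and 941 to 1226 in day1C. The part of these in the lower share was not tested.

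Each T cell peak was then compared between groups within T cell nuclei, a contrast the choice of peaks did not use, with entries summed per mouse. The edgeR quasi-likelihood test was fitted over the 21827 peaks that passed a filter on low counts, all 1548 T cell peaks among them, with all 21 mice and Benjamini-Hochberg adjustment over all peaks, and a call needs an adjusted p under 0.05. The comparisons with day0RT share its 3 mice. P-values set a difference against the spread between mice that the fit estimated.

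After cold, no T cell peak was called. Against day0RT, 0 of 1548 were called in day1C, where 0.00916% of all peaks tested were, and 0 in day3C and day7C, where 0% of all peaks were. The lowest adjusted p of a T cell peak was 0.476, 0.528 and 0.0527 (edgeR). At an unadjusted p under 0.05 stood 86, 104 and 141 T cell peaks, or 5.56%, 6.72% and 9.11%, beside 5.72%, 5.92% and 8.64% of all peaks, and DESeq2 called 0 with 20, 22 and 42 at an unadjusted p under 0.05. Of those T cell peaks with an unadjusted p under 0.05 by edgeR, 50, 87 and 104 were higher and 36, 17 and 37 lower than in day0RT. The change was below 0 for 49.4%, 36.1% and 40.1% of all T cell peaks, beside 50.3%, 50.1% and 49.5% of all peaks. The median log2 change of the T cell peaks was 0.00 in day1C, 0.08 in day3C and 0.06 in day7C. The 95% interval of the change by edgeR lay within 1 log2 unit of 0 for 1408, 1439 and 1418 of them. Median standard errors were 0.260, 0.239 and 0.241 by edgeR and 0.348, 0.343 and 0.337 by DESeq2. Without the 3 mice with few T cell nuclei, an alternative chosen after seeing the data, 2 T cell peaks rose in day7C, and leaving out day0RT replicate 3 or day3CL replicate 2 alone gave up to 2. Scaling by RLE factors or by library totals also gave 2 that rose.

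After CL, 5 T cell peaks were called. In day1CL 2 fell and none rose, or 2 of 1548 where 0.17% of all peaks tested were called. In day3CL there were 0, as for 0% of all peaks, with a lowest adjusted p of 0.533 (edgeR). In day7CL 2 rose and 1 fell, where 0.165% of all peaks were called. The shares of T cell peaks, 0.129% in day1CL and 0.194% in day7CL, were near these backgrounds. At an unadjusted p under 0.05 were 120, 87 and 134 T cell peaks (7.75%, 5.62% and 8.66%), beside 9.98%, 5.77% and 8.57% of all peaks. Of these T cell peaks 42, 51 and 68 were higher and 78, 36 and 66 lower than in day0RT. The change was below 0 for 60.4%, 47.4% and 48.1% of all T cell peaks, beside 52.9%, 52.4% and 50.1% of all peaks. The median log2 change was -0.07 in day1CL, 0.02 in day3CL and 0.01 in day7CL. The interval lay within 1 log2 unit of 0 for 1217, 1222 and 1402 peaks. The calls of day1CL rested on the set of mice, since 19 of the 21 fits without 1 mouse called 0 T cell peaks, and only those without day0RT replicate 2 or day3CL replicate 2 called any. In day7CL the fits without day0RT replicate 1 and without day7CL replicate 1 called 0 and the other 19 called some. The direction in day1CL also depended on the scaling, with 1 that rose and 0 that fell under RLE factors and 1 that rose and 2 that fell under library totals. Without the 3 mice with few T cell nuclei 1 T cell peak rose and 1 fell in day1CL, and 2 rose and 1 fell in day7CL.

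**Figure D5:**
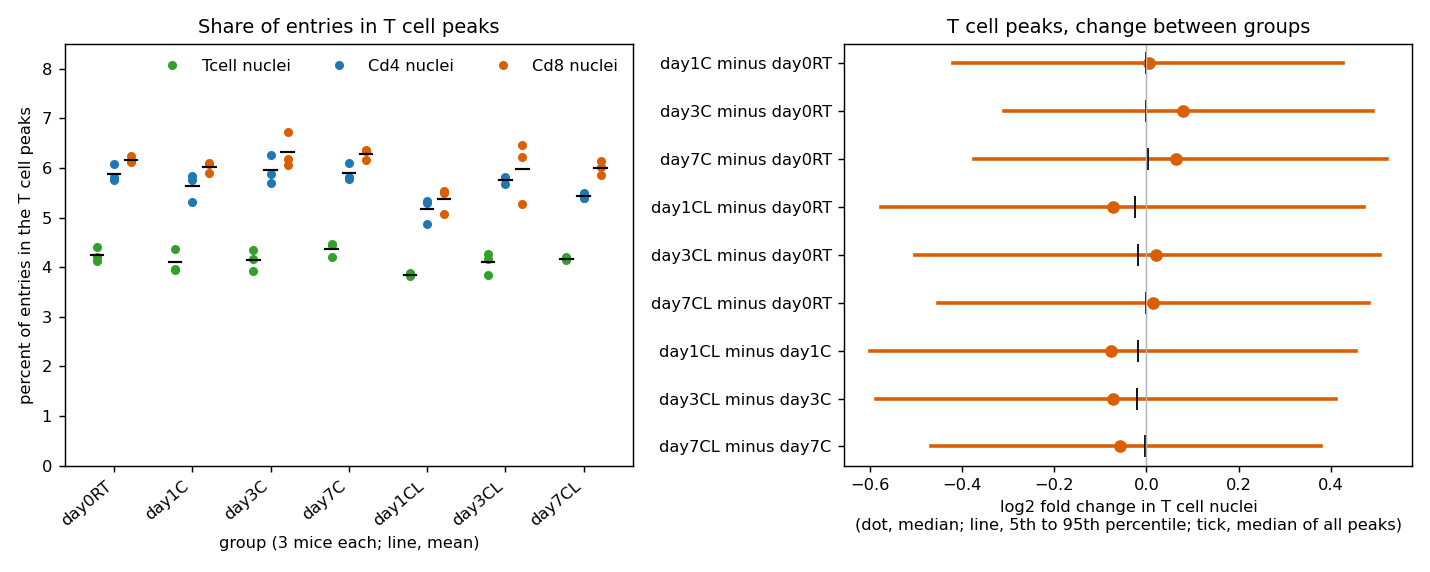
Left, percent of entries in the T cell peaks for Tcell, Cd4 and Cd8 nuclei of each mouse (dots) in the 7 groups, with the group mean (line). The dots of day3CL replicate 2 rest on 8 Tcell, 4 Cd4 and 9 Cd8 nuclei. Right, log2 change of the T cell peaks in T cell nuclei for 9 comparisons, with the median (dot), the 5th to 95th percentile (line) and the median of all peaks (tick). The day1CL dots lie below the day0RT dots in each annotation, and all medians on the right are within 0.08 of 0.

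The 3 peaks called in day7CL all lay on chromosome 17. A peak 13888 bases from the start of Spats1 (chr17:45488351-45489301) had 39.9, 39.2 and 29.7 CPM in day0RT and 13.6, 14.5 and 15.9 CPM in day7CL, so the groups were well apart. Its log2 change was -1.27 (SE 0.287, adjusted p = 0.0108, edgeR), and it was called in 23 of 30 other settings. A peak 33038 bases from the start of Zfp983, a zinc finger gene (chr17:21617229-21617944), rose from 9.98, 13.6 and 13.3 to 27.1, 32.2 and 25.4 CPM, a log2 change of 1.30 (SE 0.315, adjusted p = 0.0329, edgeR; called in 22 of 29 other settings). Of the 31 alternative settings 21 left out 1 mouse each, so such counts are not independent checks. Neither peak was called with DESeq2, without the filter on low counts, in Cd4 or Cd8 nuclei alone or in nuclei with at least 1000 entries.

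The other called peaks were called in fewer settings. A peak in a non-coding exon 34370 bases from the start of Vmn2r95, a vomeronasal receptor gene (chr17:18458059-18458837), rose in day7CL from 26.6, 18.8 and 23.5 to 47.5, 32.2 and 54.0 CPM, by 0.94 log2 (SE 0.237, adjusted p = 0.0471, edgeR; 9 of 31 settings). In day1CL, a peak 177522 bases from the start of Myc, a regulator of cell growth (chr15:62164650-62165238), fell from 80.7, 58.0 and 66.5 to 37.8, 34.4 and 30.1 CPM, a log2 change of -0.92 (SE 0.232, adjusted p = 0.0486, edgeR; 4 of 31 settings). An intronic peak of Pced1b (chr15:97342356-97343560) fell from 46.6, 54.6 and 50.1 to 18.1, 23.5 and 30.1 CPM, a log2 change of -1.16 (SE 0.291, adjusted p = 0.0486, edgeR; 4 of 31 settings). The 30.1 CPM at both day1CL peaks came from replicate 3, with 66 T cell nuclei, and rests on few entries. DESeq2 called none of the 5, with changes of like size and adjusted p of 0.999 or more. In the 15 mice of the other treated groups the Myc-side peak had between 39.1 and 80.5 CPM, above each day1CL mouse. In those of the other treated groups the Spats1-side peak had between 13.4 and 47.7 CPM, a range that held all 3 day7CL mice. The ends of this range came from day3C replicate 1 and day3CL replicate 2, with 87 and 21 T cell nuclei, and so rest on few entries.

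No T cell peak was called between CL and cold on the same day. The calls were 0 of 1548 for day1CL against day1C (0.0321% of all peaks), 0 for day3CL against day3C (0% of all peaks) and 0 for day7CL against day7C (0.0229% of all peaks), with lowest adjusted p of 0.204, 0.911 and 0.701 (edgeR). Unadjusted, 98, 83 and 83 T cell peaks (6.33%, 5.36% and 5.36%) had a p under 0.05, beside 8.02%, 4.65% and 4.68% of all peaks, and DESeq2 called 0. Of these T cell peaks 28, 16 and 21 were higher and 70, 67 and 62 lower after CL. Median log2 changes were -0.08, -0.07 and -0.06. For 1090, 1222 and 1408 peaks the interval lay within 1 log2 unit of 0, so a 2-fold difference was compatible with the data at the others. Over all 7 groups at once, no T cell peak was called (lowest adjusted p = 0.0508, edgeR), where 0.133% of all peaks were, and 133 (8.59%, beside 8.17% of all peaks) had an unadjusted p under 0.05 by edgeR and 19 (of 196 among all peaks) by DESeq2.

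No T cell peak of the gene lists was called in these comparisons, where 0% to 0.17% of all peaks tested were. At such shares lists of this size would hold few calls or none, so the absence of calls says little about these genes. The 13 peaks of the T cell receptor and CD3 list had no call in any of the 9 comparisons, and their median log2 change ran from -0.24 (day1CL against day1C) to 0.18 (day3C). Of the 54 transcription factor peaks none was called, with medians from -0.16 to 0.12, and of the 47 signalling peaks none, from -0.18 to 0.05. The 22 CD8 and cytotoxic peaks had medians from -0.12 to 0.22 and the 10 naive and homing peaks from -0.19 to 0.15, also without a call. The 7 CD4 helper and regulatory peaks (-0.18 to 0.15), the 7 inhibitory receptor peaks (-0.18 to 0.20) and the 2 gamma delta and innate-like peaks (-0.31 to 0.29) had none either. At Cd3e the day1CL mice had 47.6, 54.3 and 15.0 CPM, all below the 59.3 to 65.7 CPM of day0RT, without a call. The 15.0 CPM came from day1CL replicate 3, with 66 T cell nuclei, and rests on few entries. The day7CL mice had 63.6, 75.7 and 57.1 CPM there, around day0RT. At the Il7r peak day0RT had 67.4, 66.5 and 74.6 and day7CL 89.0, 75.7 and 79.4 CPM, which did not overlap but was not called.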

How the data were processed

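Nuclei of iWAT from 21 mice were assayed by single-nucleus ATAC-seq. The authors deposited counts of 0 or 1 per peak and nucleus (65588856 entries of 1, 145 stored zeros and none above 1) and an annotation that gives the mouse, group and cell type of each of 32552 nuclei. The 4 samples listed with the data are sequencing lanes and were put in no group, so groups came from that annotation. Per the submitters' processing notes, Bowtie2, SAMtools, MACS2 and Signac were used with the mm10 build. The study's methods state that reads with low mapping quality, duplicates per barcode and mitochondrial reads were removed, that MACS2 peaks were called on nuclei pooled per initial cluster and merged over clusters, and that shallow nuclei, nuclei with few reads in peaks and nuclei with high doublet scores were removed. No doublet caller was run here. Barcode sequences shared between mice (4218 of them, in 8739 nuclei) were kept as separate nuclei. Cutting a read to 0 or 1 flattens very accessible peaks, and the cell types were themselves clustered on these peaks.

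Entries were summed per mouse over Tcell, Cd4 and Cd8 nuclei (20972 to 1254858 per mouse, 9814 nuclei) and tested with edgeR 4.0.16 in R 4.3.3 (quasi-likelihood, TMM factors, 1 coefficient per group, two-sided, Benjamini-Hochberg over all peaks tested, threshold 0.05). Peaks had to pass filterByExpr (minimum count 10, minimum total 15, proportion 0.7) and mice needed 10 T cell nuclei. Library sizes were recomputed over the peaks that passed, whereas CPM per mouse uses its entries over all 189598 peaks. DESeq2 1.42.0, RLE factors, library totals, no filter, Cd4 or Cd8 nuclei alone, nuclei with at least 1000 entries, fits of only the groups compared, a replicate block and fits without each mouse were alternatives. The procedure was also run on simulated counts. They had the small spread between mice that the fit estimated, so they cannot show its behaviour under a larger spread. Intervals use the edgeR standard error, with a median of 0.239 to 0.323 log2 by comparison. The spread between mice beyond counting that the fit estimated was a coefficient of variation of 0.0251. DESeq2 gave larger standard errors for the same peaks, with medians of 0.337 to 0.407.

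Peak coordinates are as deposited, on GRCm38 (mm10). Genes were the 22653 protein-coding and immune receptor genes of GENCODE vM21 basic. Distances run from the peak middle to the nearest annotated start. Those of runs of peaks were taken from the nearer edge of the run to the end or outermost start of the gene. Motifs were searched on both strands of the 300 middle bases with Python 3.11.15 and pysam 0.24.0. Named were the 10 most accessible T cell peaks, up to 5 led by each annotation with the largest ratios and at least 40 CPM there, the strongest peak of each gene of the receptor, transcription factor and a few marker lists, up to 3 called peaks per comparison and direction, 2 peaks on each side of each threshold and the 10 genes with the most T cell peaks. Other named peaks, such as those of signalling genes, and the runs were chosen after their values were seen. Members and gene lists were chosen with earlier results of these data known.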

Additional observations from a re-analysis of the deposited data

How the results depend on the processing

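The number of T cell peaks, 1548, was 966 at 6 times each other pool, 2889 at 10 CPM and 463 at 40 CPM, and 1500 to 1563 without each mouse in turn. Membership moved more than these last counts, since 1325 (85.6%) stayed members with every mouse left out in turn. The mean over mice in place of pooled entries gave 1350 peaks, which held 78.8% of the members. Nuclei with at least 2000 entries gave 1378, which held 82.4%. The share near a gene start was 5.36% within 1000 and 16.0% within 5000 bases. Over whole peaks instead of 300 bases RUNX stood in 37.1%, ETS in 21.4%, the composite in 13.8% and TCF7-LEF1 in 19.4% of T cell peaks. At 1.5 times 192, 69 and 9 peaks were led by Cd8, Cd4 and Tcell, and at 3 times 25, 0 and 0. Of all peaks tested, 75 calls were made over the 6 comparisons with day0RT, 5 of them T cell peaks. These became 0 and 0 with DESeq2, 115 and 8 with library totals, 0 and 0 without the filter on low counts, 2 and 0 in Cd4 nuclei, 6 and 0 in Cd8 nuclei and 26 and 0 in nuclei with at least 1000 entries. Fitting only the groups compared gave 8 T cell peaks, and leaving out each mouse 20 to 93 and 0 to 7. In day1CL, 30 of all peaks rose and 7 fell, against 43 and 2 with RLE factors. Between CL and cold the 12 calls became 0 with DESeq2, without the filter and in Cd4 nuclei, 1 in Cd8 nuclei and 1 in nuclei with at least 1000 entries, and 4 to 14 without each mouse. T cell peaks stayed at 0 calls there in all 31 alternatives. Over the 7 groups the 29 calls became 0 with DESeq2, 46 with RLE factors, 47 with library totals, 2 without the filter, 0 in Cd4 nuclei, 11 in Cd8 nuclei, 17 in nuclei with at least 1000 entries, 53 without the 3 mice with the fewest T cell nuclei (chosen after seeing the data) and 16 to 42 without each mouse. T cell peaks, at 0, became 1 with RLE factors, 2 with library totals, 2 without the 3 mice and 0 to 1 without each mouse. Cd4 and Cd8 nuclei alone and the limit of 1000 entries hold fewer nuclei, and the other causes were not tested. A replicate block on the mouse numbers 1 to 3, chosen after seeing the data, gave 51 calls of all peaks and 3 of T cell peaks against day0RT, 9 and 0 between CL and cold and 23 and 0 over the 7 groups. Under the block 0 T cell peaks were called in day1CL, and in day7CL 3 were. Whether the mouse numbers pair mice by batch could not be decided here. The study states that its 3 batches of experiments were run independently, without naming the mice of each batch. Over the peaks tested, the deviations from the group means of same-numbered mice correlated at -0.08 to 0.06 (median 0.0052). Of these 63 pairs 0 were above 0.1, and the median was -0.0016 for 126 pairs with other numbers. By mean correlation, 11 of 21 mice were closest to their own number. Deviations at single peaks are mostly counting noise, which keeps such correlations small with or without pairing. Depth limits single peaks, since the median T cell peak had 412 entries over all mice.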
